A study of Mus musculus with 96 samples.

Results

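Leukaemia cells that descended from granulocyte-monocyte progenitors (GMP) were followed clone by clone in mice that received them alone and in mice that received them together with leukaemia cells of LSK origin. The comparison used the bone marrow and spleen libraries of 8 recipients on the Ptprca background, an immunocompetent strain. Mice 5 to 8 received GMP leukaemia only, and mice 17 to 20 received a mixture of LSK and GMP leukaemia. The choice followed the labels and used no measured value. It took 32 of the 96 submitted samples, which are PCR duplicates of 16 of the 48 deposited libraries. Only barcodes of the mCHERRY library, which marked the GMP cells, were used, and each library was rescaled to its mCHERRY reads.

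Both kinds of cell came from bone marrow of female C57BL/6 mice aged 6 to 8 weeks, and all groups shared the same handling. LSK cells were sorted as lineage-negative, c-Kit and Sca-1 positive, GMP cells as lineage-negative, c-Kit and CD34 positive, and high for the Fc-gamma receptor. Both were transduced with an MLL-AF9 retrovirus, cultured with IL-3, IL-6 and SCF, and labelled with SPLINTR barcodes by spinfection. Pools labelled GMP_T0 (GMP cells) and GMPLSK_T0 (both kinds mixed) were taken here as the cells before transplantation. Each group drew on a single pool of each kind of cell, so the tests measure the spread between recipients of that pool and not between leukaemias. The labels give no number of injected cells.

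MLL-AF9 is a fusion of a chromatin regulator with a transcriptional elongation factor that turns committed myeloid progenitors into self-renewing leukaemia cells. LSK cells include haematopoietic stem cells, whereas GMP cells are restricted to granulocytes and monocytes, and the same fusion can start a leukaemia from either. A heritable DNA barcode passes from a founder cell to its descendants, so the share of a barcode among reads stands for the share of that clone. When few clones hold most reads, the leukaemia is oligoclonal, and the number of effective clones, the exponential of the Shannon entropy, gives the number of equally large clones with the same diversity.

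The starting pools held mostly the same GMP clones at like shares. GMP_T0 held 1050 mCHERRY clones with any read and the mixed pool 989, of which 958 were in both. The 92 clones found in GMP_T0 alone made up 0.0427% of its reads. Among the 578 clones at or over 100 CPM (counts per 1000000 mCHERRY reads, or 0.01%) in both pools, the median absolute log2 ratio was 0.14, and 99.7% lay within 2-fold. The effective number of clones was 269 in GMP_T0 and 273 in the mixed pool, and no clone reached 10% of reads in either. In the mixed pool mCHERRY made up 49.4% of mCHERRY plus GFP reads (95% Wilson interval 49.34% to 49.44%). A mixed recipient therefore may also have received fewer GMP cells than a GMP-only recipient, so the presence of LSK cells and the number of GMP cells given cannot be told apart.

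The 16 libraries held 5239254 to 7814019 reads, of which 3167316 to 7308279 were mCHERRY reads. GMP cells persisted in all 4 mixed mice, with 60.5% to 67.6% of mCHERRY plus GFP reads in bone marrow and 49.9% to 62.0% in spleen. In Ptprca mice given LSK cells alone, mCHERRY reads were 0.0117% to 0.0523% of a library, which is the background of such reads. Of the GMP-only libraries, the bone marrow of mouse 6 held 0.944% and that of mouse 8 held 0.191% GFP reads. In spleen, mouse 7 held 2.92% and mouse 18 held 1.06% of reads in barcodes of no pool. Clone numbers, dominance, survival, composition and single clones were also computed without these libraries, whereas the tissue differences and the contrasts with other mice were not.

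In bone marrow, mean clone number and evenness of GMP clones were lower in mixed than in GMP-only mice, but no measure passed after adjustment. Detected clones, those at or over 100 CPM, numbered 98, 89, 89 and 80 in mice 5 to 8 and 70, 64, 68 and 80 in mice 17 to 20. The groups met only at 80, the value of mice 8 and 20. The means were 89.0 ± 7.35 without and 70.5 ± 6.81 with LSK cells (SD, n = 4 each), a difference of -0.34 log2 (exact permutation p = 0.0571, adjusted 0.114 over 8 tests). Effective clones numbered 11.8, 12.2, 11.5 and 10.3 in GMP-only mice and 9.36, 10.2, 7.50 and 9.56 in mixed mice, with no overlap. The means of 11.5 ± 0.82 and 9.15 ± 1.16 (SD, n = 4 each) differed by -0.33 log2 or 1.26-fold (exact permutation p = 0.0286, the smallest that 4 against 4 allows, adjusted 0.114). Without the marrow libraries of mice 6 and 8 the difference in effective clones was -0.36 log2 and in detected clones -0.41 log2 (for each, exact permutation p = 0.0667, the smallest that 4 against 2 mice allow, adjusted 0.133).

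The means of the dominance measures were higher in mixed marrow, and none passed after adjustment. The largest clone in bone marrow held 30.6%, 25.3%, 28.9% and 28.0% of mCHERRY reads in GMP-only mice and 30.0%, 32.1%, 38.7% and 31.3% in mixed mice. Only mouse 17 lay within the range of the GMP-only group. The means were 28.2% ± 2.22 and 33.0% ± 3.88 (SD, n = 4 each; exact permutation p = 0.0571, adjusted 0.114). The 10 largest clones together held 88.7% ± 1.27 without and 91.4% ± 1.05 with LSK cells (SD, n = 4 each; exact permutation p = 0.0571, adjusted 0.114). Without the marrow libraries of mice 6 and 8 the difference for the largest clone was 3.27 points (exact permutation p = 0.4, adjusted 0.555). It was 2.93 points without mouse 19, which had the highest share. At least 5 of the 8 tests would have to reach the smallest p for any to pass after adjustment. All permutation tests were two-sided.

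**Figure D1:**
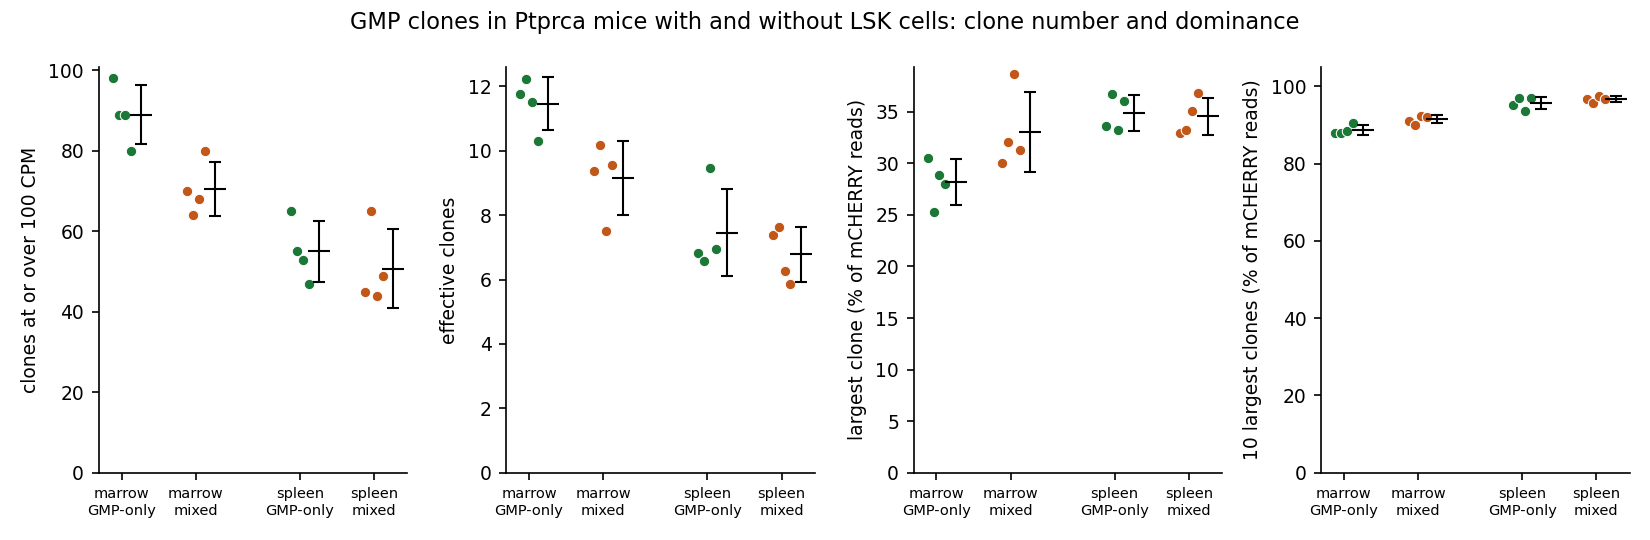
Number of GMP clones at or over 100 CPM, effective clones, and the shares of the largest clone and of the 10 largest clones (% of mCHERRY reads), by tissue and group. Points are mice (n = 4 per group), and the bar is the mean with its SD. In bone marrow every mixed mouse lies below every GMP-only mouse for effective clones (7.50 to 10.2 against 10.3 to 12.2), while the groups overlap in every spleen panel.

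In spleen, the groups overlapped for all 4 measures. Detected clones numbered 65, 55, 53 and 47 in mice 5 to 8 and 45, 65, 44 and 49 in mice 17 to 20 (55.0 ± 7.48 and 50.8 ± 9.74, SD, n = 4 each; -0.12 log2, exact permutation p = 0.486, adjusted 0.555). Effective clones were 7.45 ± 1.35 without and 6.78 ± 0.86 with LSK cells (SD, n = 4 each; -0.13 log2, exact permutation p = 0.486, adjusted 0.555). The largest clone held 34.9% ± 1.73 and 34.5% ± 1.81 (SD, n = 4 each; exact permutation p = 0.771, adjusted 0.771), and the 10 largest held 95.7% ± 1.56 and 96.6% ± 0.78 (SD, n = 4 each; exact permutation p = 0.343, adjusted 0.549). Of the clones detected in any mixed spleen, 23 of 89 had no read in the mixed pool. For GMP-only spleens, 5 of 92 had no read in GMP_T0. The small spleen differences depended on single mice. For effective clones the log2 difference was -0.0085 without mouse 7, for the 10 largest clones the difference was 0.264 points without mouse 7, and for detected clones the log2 difference ran from -0.25 without mouse 18 to -0.041 without mouse 5. The log2 difference in detected spleen clones was -0.28 over clones with reads in both pools (exact permutation p = 0.0571, adjusted 0.0914). It was -0.26 without the spleens of mice 7 and 18 (exact permutation p = 0.2, adjusted 0.32).

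The contrast between marrow and spleen was not itself called. Within a mouse, the log2 ratio of marrow to spleen detected clones was 0.70 ± 0.08 in GMP-only and 0.49 ± 0.34 in mixed mice (SD, n = 4 each; exact permutation p = 0.229, adjusted 0.257 over 4 tests). For effective clones it was 0.63 ± 0.27 and 0.43 ± 0.19 (SD, n = 4 each; exact permutation p = 0.257, adjusted 0.257). Marrow minus spleen, the share of the 10 largest clones was -7.0 ± 1.62 points without and -5.22 ± 0.51 points with LSK cells (SD, n = 4 each; exact permutation p = 0.0857, adjusted 0.229). For the largest clone the difference between groups was 5.17 points (exact permutation p = 0.114, adjusted 0.229). A single one of the 4 tests at the smallest exact permutation p (0.0286) would not pass after adjustment (0.114). Without mouse 18 the difference between groups for detected clones went from -0.21 to -0.043 log2. Without mouse 6 that for effective clones went from -0.20 to -0.11 log2, and that for the 10 largest clones from 1.78 to 1.12 points.

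By size class, mixed marrow held more reads in clones over 10% and fewer in those of 1 to 10%. A clone that crossed the bound of 10% adds to both differences. Clones over 10% of reads numbered 3, 3, 3 and 4 in mice 5 to 8 and 4 in each of mice 17 to 20. They held 61.3%, 60.3%, 63.7% and 73.9% of reads without LSK cells and 77.4%, 73.8%, 84.5% and 76.8% with them. Mouse 8 alone reached the range of the mixed mice. The clone mCHERRY_2_Barcode_4128 held 7.17% to 9.84% of marrow in mice 5 to 7, so it counts there in the class of 1 to 10%. It held 11.7% in mouse 8 and 10.4% to 16.3% in mixed mice, so it counts there in the class over 10%. Clone mCHERRY_2_Barcode_205681 counts in the class of 1 to 10% in mice 5 to 8 (3.59% to 8.49%), 17 (2.26%) and 20 (5.83%). In mice 18 and 19 it fell below that class (0.44% and 0.876%). The shares of both classes thus depend in part on mCHERRY_2_Barcode_4128, and that of 1 to 10% also on mCHERRY_2_Barcode_205681. Whether the groups stay apart without these clones was not tested. Clones of 1 to 10% numbered 8, 8, 6 and 6 against 6, 5, 2 and 5, and held 16.7% to 28.7% against 4.58% to 15.4%, with no overlap of the shares. Clones of 0.1 to 1% numbered 26 to 41 without and 23 to 24 with LSK cells, again with no overlap, whereas those of 0.01 to 0.1% overlapped (39 to 56 against 31 to 48). In spleen, clones over 10% numbered 2 or 3 in both groups and held 61.6% to 70.7% without and 61.9% to 74.5% with LSK cells. These size classes were described and not tested.

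**Figure D2:**
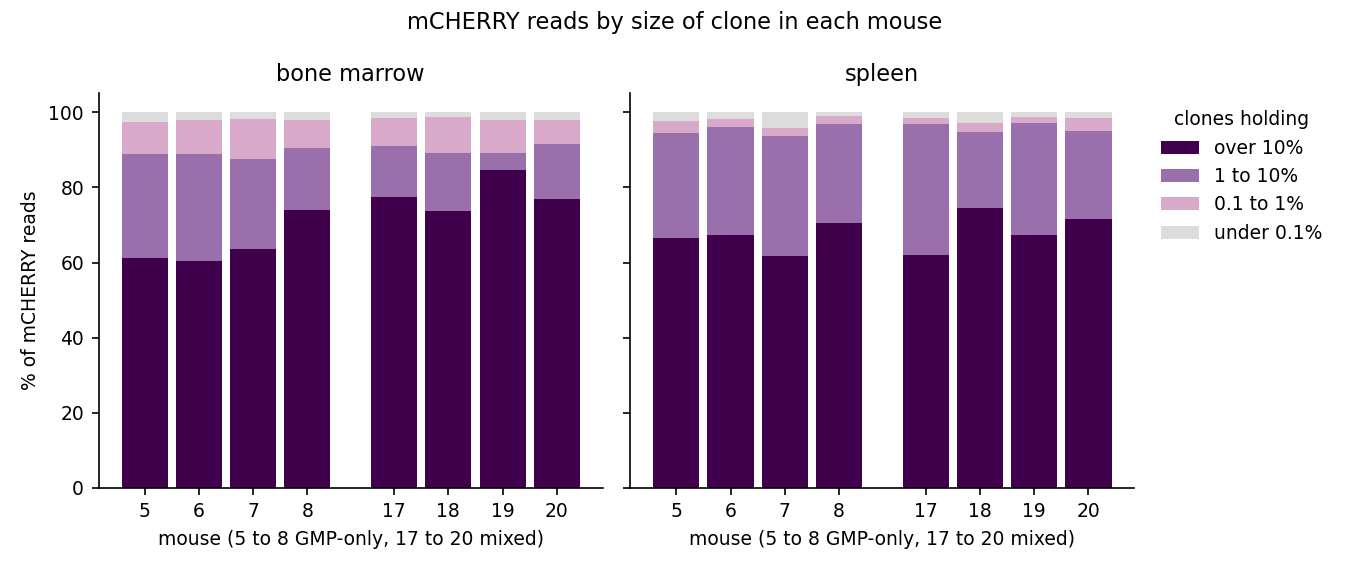
Share of mCHERRY reads (%) held by clones of 4 size classes in each mouse, bone marrow and spleen; mice 5 to 8 are GMP-only and 17 to 20 mixed. In marrow the class over 10% spans 60.3% to 73.9% in GMP-only and 73.8% to 84.5% in mixed mice, and the class of 1 to 10% is smaller in every mixed mouse. The class of 1 to 10% depends in part on clones mCHERRY_2_Barcode_4128 and mCHERRY_2_Barcode_205681.

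Clones mCHERRY_2_Barcode_626161 and mCHERRY_2_Barcode_283858 ranked 1 to 3 in every library, with or without LSK cells. The largest clone was mCHERRY_2_Barcode_626161 in all 8 marrow libraries and in 4 spleens (mice 5, 17, 19 and 20), and mCHERRY_2_Barcode_283858 in the other 4 spleens. Barcodes carry no gene, so a clone has no known function and is named by its number below. The 7 clones that led either group in either tissue were 626161, 283858, 1204592, 4128, 205681, 88201 and 307110, and together they made up 9.40% of GMP_T0 and 9.31% of the GMP part of the mixed pool. In marrow they held 83.0% ± 2.21 of reads without and 85.5% ± 4.07 with LSK cells, and in spleen 89.3% ± 4.79 and 91.0% ± 0.92 (SD, n = 4 each). They were chosen for their high shares, so these levels are a description. Not all of them led in each mouse. Clone 205681 had rank 18 in the marrow of mouse 18 and rank 10 in the spleen of mouse 20. Clone 307110 had rank 19 in the marrow of mouse 20.

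None of the leading clones other than 205681 was called between groups. Clone 626161 was second in GMP_T0 with 2.97% of reads and held 28.2% ± 2.22 of marrow reads without and 33.0% ± 3.88 with LSK cells (SD, n = 4 each; 0.22 log2, SE 0.15, limma adjusted p = 0.503). Clone 4128, the largest of the pool with 3.24%, held 8.87%, 7.17%, 9.84% and 11.7% of marrow in GMP-only mice and 10.8%, 11.7%, 10.4% and 16.3% in mixed mice. The groups overlapped because mouse 8 lay above mixed mice 17 and 19 (0.39 log2, SE 0.22, limma adjusted p = 0.413). Clone 1204592 held 12.3% ± 2.0 and 12.8% ± 1.58 (SD, n = 4 each; limma adjusted p = 0.871) from 2.16% of the pool. Clone 283858 started from 0.491%, rank 41 of the pool, and held 21.4% ± 2.58 of marrow without and 20.0% ± 4.59 with LSK cells (SD, n = 4 each; limma adjusted p = 0.75), which is 43.5 and 47.1 times its share in the respective pool. Clone 88201, at 0.436% of the pool, held 3.8% ± 0.21 and 4.30% ± 1.26 (SD, n = 4 each; limma adjusted p = 0.831).

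Some of the largest pool clones stayed small in every marrow. Clone 205626, of rank 3 in GMP_T0 with 2.60%, held 0.759% ± 0.25 of marrow without and 0.84% ± 0.202 with LSK cells (SD, n = 4 each), below its share in the pool. Clone 34872, of rank 5 with 1.92%, held 0.00203%, 0.0136%, 0.366% and 0.325% of marrow in mice 5 to 8. In the mixed mice its highest marrow share was 0.0133%, and mouse 19 had no read of it (-3.66 log2, SE 1.56, limma adjusted p = 0.224). Of the 20 largest clones of GMP_T0, 13 ± 1.41 were detected in GMP-only and 10.3 ± 1.26 in mixed marrow (SD, n = 4 each), with ranges of 11 to 14 and 9 to 12.

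One clone was called in bone marrow, and none in spleen. Of the 115 clones with a mean of at least 100 CPM in marrow, limma on log2(CPM + 10) called 0.87% at an adjusted p under 0.05, which is clone 205681, and 0% of the 54 tested in spleen. Clone 205681 was a minor clone of the pool, with 0.0611% of GMP_T0 and rank 292. It held 7.38%, 8.49%, 3.59% and 7.0% of marrow reads in mice 5 to 8 and 2.26%, 0.44%, 0.876% and 5.83% in mice 17 to 20. Mouse 20 lay within the GMP-only range, and the other 3 mixed mice below it. The difference in mean log2(CPM + 10) was -2.07 (SE 0.44, limma adjusted p = 0.00218). This SE is moderated with a trend over all tested clones, so it does not measure the spread of this clone between mice alone. The mean shares were 6.61% ± 2.12 without and 2.35% ± 2.45 with LSK cells (SD, n = 4 each). The call was lost with both tissues of a mouse averaged (-0.99 log2, limma adjusted p = 0.213), with a minimum of 1000 CPM (limma adjusted p = 0.0908) and with no minimum (limma adjusted p = 0.54). It was also lost without mouse 5 (adjusted p = 0.101), without the marrow libraries of mice 6 and 8 (-1.78 log2, adjusted p = 0.164), with eBayes without trend (adjusted p = 0.348) and with edgeR on the recovered reads with or without TMM scaling (adjusted p = 0.445 and 0.267).

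In spleen clone 205681 was not called. It held 2.39%, 6.30%, 5.64% and 4.70% in GMP-only mice and 6.88%, 1.77%, 6.65% and 0.712% in mixed mice, so the mixed mice spanned a wider range on both sides (-0.70 log2, SE 0.72, limma adjusted p = 0.778). Within single mixed mice the tissues diverged. Mouse 20 had 8.19 times as much of it in marrow as in spleen, whereas mouse 19 had 7.58 times as much in spleen as in marrow. GMP-only mice ranged from 0.636 to 3.10 times marrow over spleen.

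Most of the tested smaller clones had a lower mean log2 level in mixed marrow, a direction that depended on the scaling and on the minimum. Of the 115 tested clones, 82 had a lower and 33 a higher mean log2 level with LSK cells, and the median was -0.92 log2. Over all 1099 clones with a read the median was -0.02 log2, and over the 35 with a mean of at least 1000 CPM it was -0.22 log2. Of the 115, 28 had a mixed mean and 10 a GMP-only mean under 100 CPM, so they passed the minimum only through the other group, and the counts are a description. At an unadjusted p under 0.05 by limma there were 16 clones, of which 10 had passed only through the GMP-only mice. The 10 clones with a mean of at least 1% had a median of -0.03 log2, with 5 lower and 5 higher. The 25 clones of 0.1 to 1% had a median of -0.55 log2 and the 80 clones of 0.01 to 0.1% one of -1.23 log2, with 60 of them lower. The levels are shares, so the direction is relative. The median was -0.08 log2 by edgeR with TMM scaling, and 0.79 log2 with each mouse centred on its median tested clone. Under that centring 10 marrow clones were called higher and none lower, among them 626161, 4128, 1204592, 283858 and 88201, and clone 205681 was at -0.35 log2 (limma adjusted p = 0.837). In spleen 33 of 54 tested clones were lower and 21 higher, with a median of -0.14 log2, and 4 had an unadjusted p under 0.05 by limma, 3 of them lower. edgeR called none in either tissue, with 15 and 21 marrow clones and 1 and 1 spleen clones at an unadjusted p under 0.05, with and without TMM scaling.

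**Figure D3:**
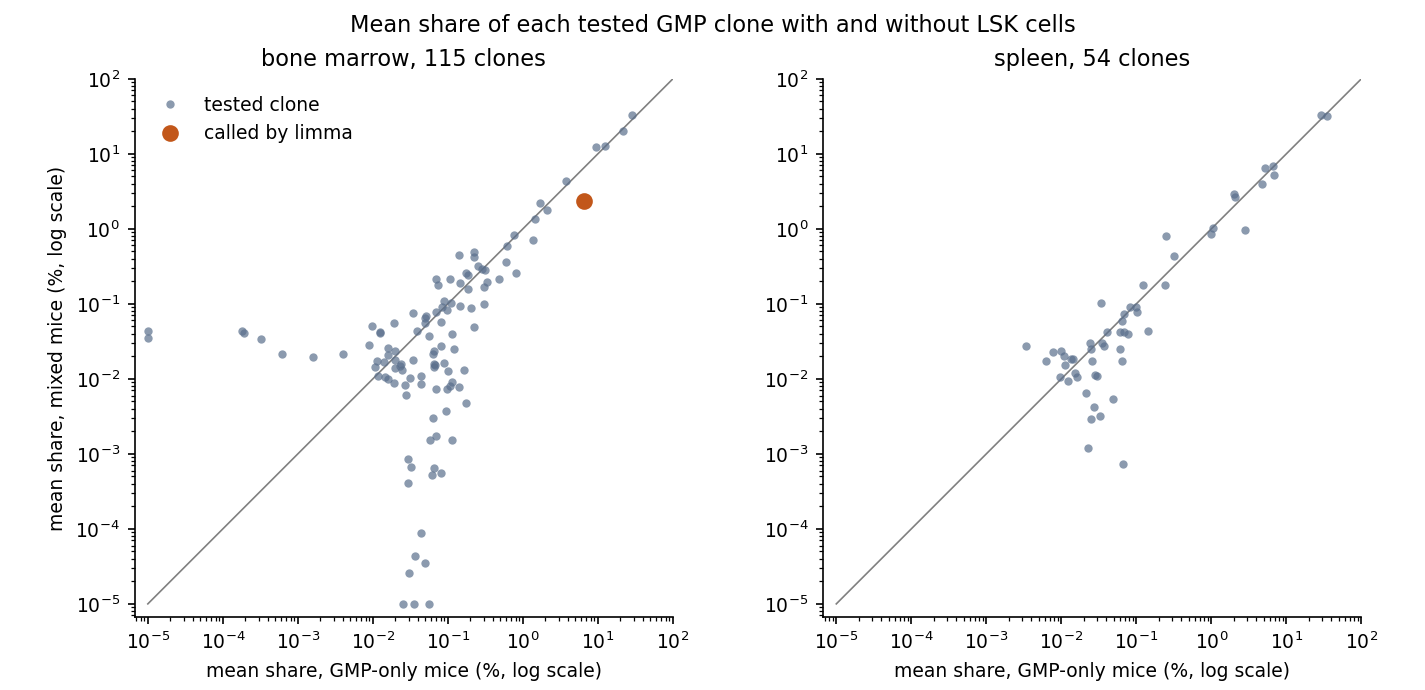
Mean share of each tested GMP clone in GMP-only mice (x) and in mixed mice (y), both in % of mCHERRY reads on log scales, for 115 clones in bone marrow and 54 in spleen; the line marks equal shares and means below 1e-05% are drawn at that value. The called clone 205681 is at 6.61% and 2.35% in marrow. In marrow many of the smaller clones lie below the line, and 82 of 115 had a lower mean log2 level in mixed mice. That level is not the mean share drawn. Clone 345275 was lower by it (-1.81 log2), but its mean shares were 0.14% in GMP-only and 0.454% in mixed marrow.

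Some clones separated the groups in marrow without a call. In 7 of the 115 tested clones (6.09%) every mixed mouse lay below every GMP-only mouse, and in 2 (1.74%) every mixed mouse lay above. Of the 7, 5 had a mixed mean under 100 CPM and were tested only through their GMP-only values, so the count is a description. In spleen both counts were 0 of 54 (0%). Of the 7 lower clones, 4 belong to pairs of barcodes described further on. Clones 51624 and 138752 had ranks 6 and 11 of GMP_T0 with 1.90% and 1.12%. Clone 51624 held 0.196%, 0.16%, 0.151% and 0.144% of marrow in mice 5 to 8 and 0.00123%, 0.00609%, 0.00705% and 0.0377% in mice 17 to 20. The mean shares differed 12.5-fold, and the mean log2 levels differed by -4.28 (SE 1.22, limma adjusted p = 0.0544). Clone 138752 differed 12.4-fold (0.112% ± 0.0165 against 0.009% ± 0.0112, SD, n = 4 each; limma adjusted p = 0.0977). In spleen mouse 8 had 0.000567% of clone 51624, within the range of the mixed mice (0.00049% to 0.011%), and the difference was -1.95 log2 (SE 1.18, limma adjusted p = 0.778).

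The 2 clones that lay higher in every mixed marrow were 598660 and 536392. Clone 598660 held 0.0295% to 0.1% without and 0.137% to 0.299% with LSK cells (3.07-fold, 1.63 log2, SE 0.93, limma adjusted p = 0.413). Clone 536392 held 0.00828% to 0.0275% and 0.0373% to 0.0727% (2.89-fold, 1.53 log2, SE 1.23, limma adjusted p = 0.586). These clones and the lower ones beside 205681 were singled out after their values were seen.

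**Figure D4:**
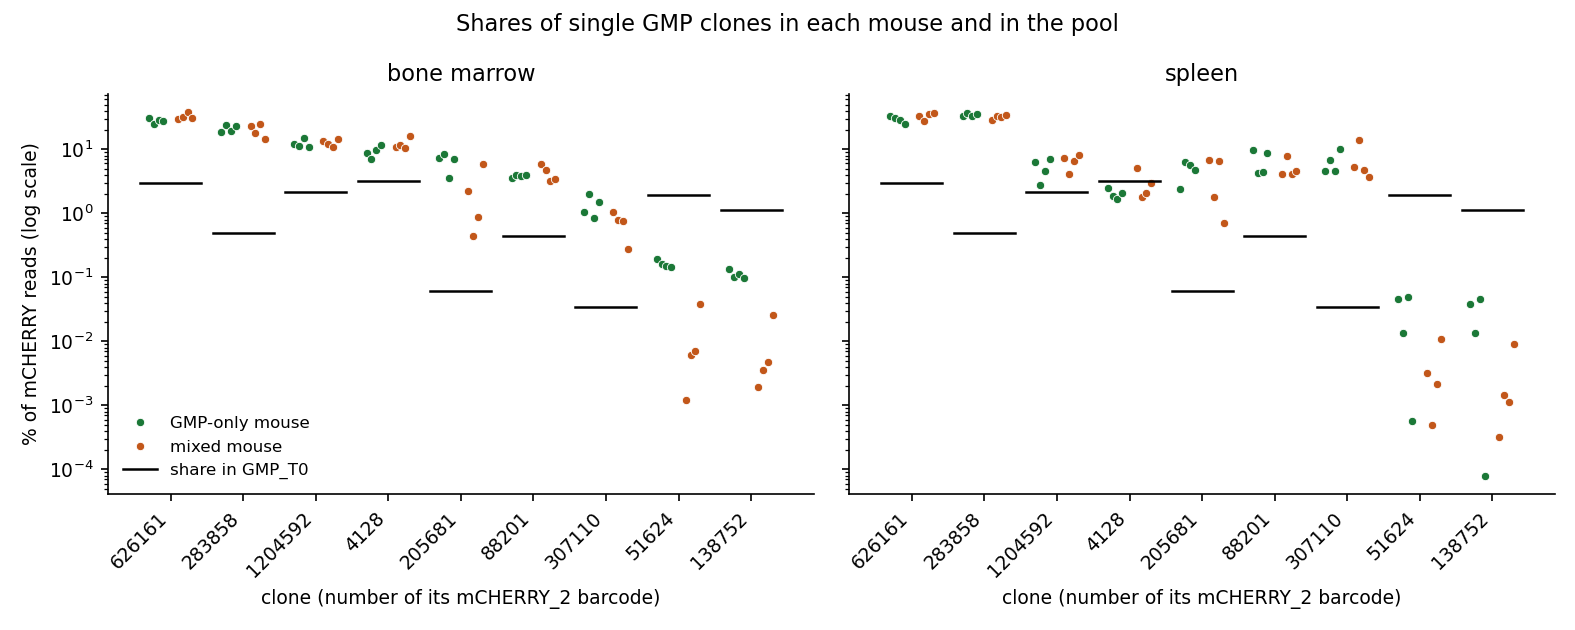
Share of single GMP clones (% of mCHERRY reads, log scale) in each mouse, for the 7 leading clones and for 51624 and 138752, with the share in GMP_T0 as a line. The leading clones overlap between groups in both tissues, clone 205681 is between 0.44% and 2.26% in 3 of the 4 mixed marrow libraries, and 51624 and 138752 lie below their share in the pool in all libraries.

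Some barcodes rose and fell together across mice, so the number of barcodes may exceed the number of founder cells. Among the 90 barcodes that reached 0.1% of reads in at least 1 of the 16 libraries, 5 pairs had a correlation of at least 0.97 in log2 level over the libraries and were both at or over 100 CPM in at least 3 of them. The pairs were chosen for this likeness, which is therefore no test. The ratio in the pools was not used in the choice. Barcode 51624 stood at 1.01 to 1.56 times 138752 in the 8 libraries with both detected, and at 1.69 and 1.57 times in GMP_T0 and the mixed pool. Barcode 10809 stood at 0.832 to 1.69 times 35245 in all 16 libraries and at 1.01 and 0.967 times in the pools. Barcode 210227 stood at 1.13 to 1.16 times 458160 in 3 libraries and at 1.22 and 1.24 times in the pools, and both were among the 7 that were lower in every mixed marrow. Barcode 243432 stood at 0.917 to 1.27 times 27950 in 7 libraries and at 1.13 and 0.94 times in the pools. The pair of 295534 and 53308 did not keep its ratio in the pools. Barcode 295534 stood at 0.932 to 1.05 times 53308 in 3 libraries, but at 1.64 times in GMP_T0 and 0.897 times in the mixed pool. Reads of 295534 were in 9 libraries, of 53308 in 11, and of both in 7. Whether each pair marks 1 cell was not tested. With each pair summed, the log2 difference in marrow clone number was -0.31 (exact permutation p = 0.0286, adjusted 0.114), and limma called 2 marrow clones lower, 205681 and the sum of 51624 and 138752 (-4.31 log2, SE 1.11, adjusted p = 0.0193).

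Fewer GMP clones of the pool reached the detection minimum in mixed marrow, at each of the higher abundance classes. Of the 221 clones at or over 0.1% of GMP_T0, 66, 69, 67 and 59 were detected in the marrow of mice 5 to 8 and 54, 49, 54 and 56 in that of mice 17 to 20. The groups did not overlap. The survival was 29.5% ± 1.97 without and 24.1% ± 1.35 with LSK cells (SD, n = 4 each; exact permutation p = 0.0286, adjusted 0.152 over 16 tests). Of the 386 clones of 0.01 to 0.1%, 28, 19, 21 and 18 were detected without and 14, 13, 13 and 15 with LSK cells, or 5.57% ± 1.17 and 3.56% ± 0.25 (SD, n = 4 each; exact permutation p = 0.0286, adjusted 0.152). Neither difference passed after adjustment. Without the marrow libraries of mice 6 and 8 they were -6.0 and -2.78 points (for each, exact permutation p = 0.0667, adjusted 0.229).

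The classes of the mixed pool gave similar values. Of the 222 clones at or over 0.1% of the GMP part of GMPLSK_T0, 29.2% ± 2.25 were detected in marrow without and 23.4% ± 1.27 with LSK cells (SD, n = 4 each; exact permutation p = 0.0286, adjusted 0.152). Of its 396 clones of 0.01 to 0.1%, 5.11% ± 0.91 and 3.98% ± 0.56 were detected (SD, n = 4 each; exact permutation p = 0.0857, adjusted 0.229). Rare clones seldom appeared in either group. Of the 284 clones at 0.001 to 0.01% of GMP_T0, 0.792% ± 0.528 and 1.06% ± 1.22 were detected (SD, n = 4 each; exact permutation p = 0.857, adjusted 1), and of the 159 clones below 0.001% none was detected in any of the 16 libraries.

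In spleen the groups overlapped in every class. Of the clones at or over 0.1% of GMP_T0, 54, 47, 41 and 38 were detected in mice 5 to 8 and 36, 32, 36 and 40 in mice 17 to 20 (20.4% ± 3.20 and 16.3% ± 1.48, SD, n = 4 each; exact permutation p = 0.0571, adjusted 0.229). Of those at 0.01 to 0.1%, 2.07% ± 0.37 and 2.01% ± 0.25 were detected (SD, n = 4 each; exact permutation p = 1, adjusted 1).

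**Figure D5:**
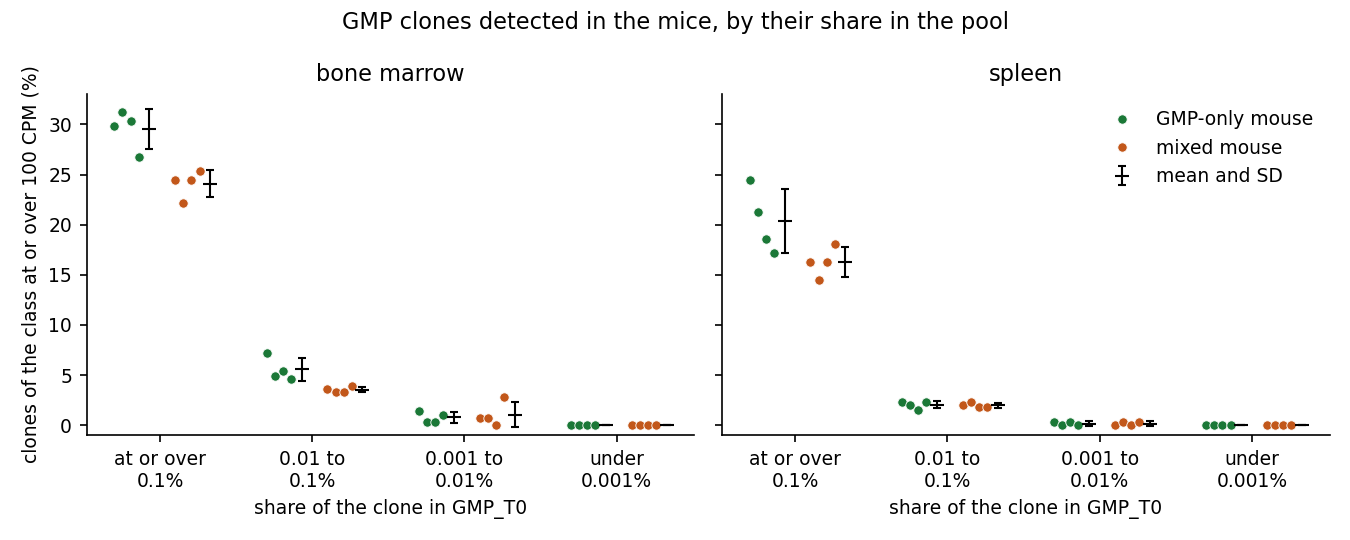
Percentage of GMP clones of each abundance class of GMP_T0 that were at or over 100 CPM in a mouse, by tissue and group; points are mice and the bars give the mean and SD (n = 4 per group). In marrow the classes at or over 0.1% (29.5% against 24.1%) and 0.01 to 0.1% (5.57% against 3.56%) separate the groups, and in spleen all classes overlap.

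Clones of intermediate abundance also held less of mixed marrow. Those at 0.01 to 0.1% of GMP_T0 held 13.3%, 12.9%, 6.83% and 9.94% of marrow reads in mice 5 to 8 and 5.02%, 2.34%, 2.56% and 7.33% in mice 17 to 20, with mouse 20 above mouse 7. The called clone 205681 belongs to this class and made up 6.61% ± 2.12 and 2.35% ± 2.45 of marrow (SD, n = 4 each). In spleen the class held 14.8% ± 3.66 and 14.7% ± 4.71 (SD, n = 4 each), mostly in clones 205681 and 307110. These shares were not tested.

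The count of all clones turned direction at a lower minimum, while the survival of abundant pool clones did not. At 10 CPM the marrow counts were 163, 179, 136 and 171 without and 123, 119, 274 and 183 with LSK cells, a difference of 0.03 log2 (exact permutation p = 0.914, adjusted 0.914). Mouse 19 had 167 and mouse 20 had 61 marrow barcodes at 10 CPM that were in neither pool, against 1 to 33 in the GMP-only mice. Counting only clones at or over 0.01% of GMP_T0, the marrow of mice 5 to 8 held 146, 143, 122 and 165 at 10 CPM and that of mice 17 to 20 held 113, 108, 99 and 110, with no overlap. The survival of clones at or over 0.1% was 47.1% ± 8.39 and 36.7% ± 0.98 at 10 CPM (SD, n = 4 each; exact permutation p = 0.0286, adjusted 0.152) and 15.5% ± 1.97 and 11.9% ± 1.25 at 1000 CPM (SD, n = 4 each; exact permutation p = 0.0286, adjusted 0.152). With any read counted after thinning to 3167316 mCHERRY reads, GMP-only values ran from 51.0% to 100%, the highest in mouse 8, and mixed values from 44.2% to 50.5%.

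Mice of one group shared a core of clones. In marrow, 45 of the 155 clones detected in any GMP-only mouse were detected in all 4, against 33 of 139 for mixed mice. The cores had 29 clones in common, 64.4% of the GMP-only and 87.9% of the mixed core. In spleen the cores held 31 of 92 and 30 of 89 clones, with 26 in common (83.9% and 86.7%). Core clones held 95.3% to 97.6% of marrow reads in GMP-only and 95.8% to 97.4% in mixed mice. No clone was detected in all 4 mice of one group and in none of the other, in either tissue. Clones detected in 3 or 4 GMP-only and in no mixed mouse numbered 2 of 155 in marrow and 6 of 92 in spleen. The reverse numbered 0 of 139 and 0 of 89. Clones detected in GMP-only mice alone numbered 54 in marrow and 37 in spleen, and those in mixed mice alone 38 and 34. These counts were not tested.

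No difference in overall composition passed. With 2 tests, the smallest exact permutation p (0.0286) in marrow alone would become 0.0571 after adjustment, so marrow could not pass alone. The mean Bray-Curtis distance in marrow was 0.17 between groups, 0.167 within mixed and 0.14 within GMP-only mice, so the between minus within difference was 0.017 (exact permutation p = 0.0571, adjusted 0.114 over 2 tests). Leaving out mouse 6 lowered this difference to 0.003 (exact permutation p = 0.686), and leaving out the marrow libraries of mice 6 and 8 gave -0.00091 (exact permutation p = 1). In spleen it was -0.00357, with 0.149 between, 0.158 within mixed and 0.146 within GMP-only mice (exact permutation p = 0.771, adjusted 0.771), and without mice 7 and 18 it was 0.0191 (exact permutation p = 0.1, the smallest that 3 against 3 allow). The distance between marrow and spleen of one mouse was larger, at 0.288 ± 0.0134 in GMP-only and 0.296 ± 0.0851 in mixed mice (SD, n = 4 each).

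Some leading clones differed between tissues in the same direction in both groups. Clone 307110 had a higher share in spleen in 8 of 8 mice, by 3.42 to 6.70 times without and 5.13 to 17.9 times with LSK cells. Its marrow share was 1.35% ± 0.497 and 0.71% ± 0.316 and its spleen share 6.54% ± 2.60 and 6.90% ± 4.66 (SD, n = 4 each). It started from 0.0345% of GMP_T0 and 0.0199% of the GMP part of the mixed pool. The mean shares without and with LSK cells were 39.1 and 35.7 times its share in the respective pool in marrow. In spleen they were 190 and 347 times that share. Clone 283858 was also higher in spleen in 8 of 8 mice, where it held 34.7% ± 1.93 without and 32.3% ± 2.44 with LSK cells (SD, n = 4 each). Clones 4128 and 1204592 were higher in marrow in 8 of 8 mice, by 2.13 to 6.55 times and 1.58 to 4.01 times. Clone 626161 was higher in marrow in 4 and in spleen in 4 mice. These tissue ratios were not tested. Clone 307110 joined the leading clones only through its spleen shares and clone 4128 only through its marrow shares. That choice favours the direction seen, so the ratios of these clones are a description.

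No difference from the other contrasts with and without a competitor passed after adjustment. In the marrow of immunodeficient NSG mice, effective GMP clones numbered 7.38 ± 1.16 alone (SD, n = 4) and 6.58 ± 0.74 with LSK cells (SD, n = 3), and the difference of differences was -0.17 log2 (exact permutation p = 0.479, adjusted 0.802 over 16 tests). For LSK clones in Ptprca marrow they numbered 18.4 ± 2.47 alone (SD, n = 3) and 13.04 ± 2.58 with GMP cells (SD, n = 4), with a difference of differences of 0.18 log2 (exact permutation p = 0.582, adjusted 0.802). The LSK and GMP clones of a mixed mouse share 1 library, which the test does not model. Of the 16 tests, 1 had an unadjusted p under 0.05, the share of the largest clone in spleen against LSK clones (-10.1 points, exact permutation p = 0.0453, adjusted 0.725).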

How the data were processed

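Barcodes in genomic DNA were counted by sequencing in bone marrow and spleen of 8 mice and in 2 pools. The deposited values are CPM that the authors had filtered and collapsed, per the labels, with 1 column for each pair of PCR duplicates and a sum of 1000000 per column. Bowtie 1.2.2 and R 3.6 were used, per the submitters' processing notes; aligner settings and filters are not given in the sources used here. The labels' extraction protocol describes a droplet preparation, so how DNA was obtained is uncertain. Values were whole multiples of 1 step, within 0.01, for 100% of listed values, and were taken as reads; had duplicates been averaged, a step would be a fraction of a read.

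Mouse was the replicate. Group means were compared by exact two-sided permutation tests (70 assignments; with unequal groups p is the share of assignments with an absolute difference at least as large) and Benjamini-Hochberg adjustment within each family. Single clones with a mean of at least 100 CPM were tested per tissue with limma 3.58.1 (lmFit, eBayes with trend) on log2(CPM + 10), called at adjusted p under 0.05; edgeR 4.0.16 was an alternative. The exact and limma tests were also run on simulated data with known answers; edgeR was not. The p of an alternative was adjusted with the other tests of its family at their reported values. Each SE given with limma is the moderated one, which draws on the other tested clones. A fold change on the log2(CPM + 10) scale understates that of low clones. It compares mean log2 levels, so it can differ in either direction from the ratio of mean shares. A floor of 3 reads was a chosen value, and no count or test applied it. Intervals cover counting error only, since PCR reads are not independent molecules. Named clones were, per tissue, the 5 highest by mean in each group, the 5 largest of each pool, up to 5 limma calls per direction, and clones detected in all mice of one group and none of the other; others are marked. Members, lists and rules were chosen with earlier results of these data known. Barcodes of the GFP and BFP libraries in these mice were not analysed here except as shares of reads.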

Additional observations from a re-analysis of the deposited data

Results flagged for a closer look

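In 76 groups of 4 mice, 7 held a mouse far from the other 3. A rate of 1 in 20 would give about 3.8 if the groups were independent and their values normally distributed. The groups share libraries and include the linked barcodes 51624 and 138752, so 3.8 is only a rough guide. Spleen of mouse 7 had 9.47 effective clones against 6.56 to 6.96 in the other GMP-only mice, and this library also held 2.92% of its reads in barcodes of no pool. Spleen of mouse 18, with 1.06% of reads in such barcodes, held 7.89% of clone 88201 against 4.07% to 4.65%, and 13.8% of clone 307110 against 3.71% to 5.29%, in the other mixed mice. Spleen of mouse 6 held 0.244% of clone 34872, where the other GMP-only mice had 0% to 0.0108%. Mouse 20 was the highest mixed mouse for clone 51624 in marrow (0.0377% against at most 0.00705%) and for its partner 138752 in marrow (0.0257% against at most 0.00483%) and spleen (0.00893% against at most 0.00142%). What sets these libraries apart was not tested.

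The contrast of the largest clone in spleen differed from that of LSK clones in the same host by -10.1 points (exact permutation p = 0.0453), which failed adjustment (0.725). In GMP-only mice, GFP reads made up 0.944% of the marrow library of mouse 6 and 0.191% of that of mouse 8, against 0.0137% in GMP_T0. The marrow of mouse 8 also had 764 mCHERRY clones with any read, against 213 to 263 in the other GMP-only mice.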

How the results depend on the processing

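No measure of clone number, dominance, survival, composition, tissue difference or contrast with other groups passed after adjustment under any alternative tried. This says nothing about stability, since 5 of 8 tests of clone number and 10 of 16 of survival, 4 of them fixed at p = 1, would need the smallest p. For composition and tissue difference, a single test at the smallest p would not pass either. Directions turned as follows. At 10 CPM the difference in detected clones became 0.028 log2 in marrow, 0.40 log2 for marrow minus spleen and 0.29 log2 against LSK clones. The largest clone in spleen turned with tissues averaged (2.24 points), and without 1 mouse ranged from -1.11 to 0.26 points. The survival of clones at 0.001 to 0.01% in marrow turned with any read after thinning (-7.08 points), ranged from -0.32 to 0.62 points without 1 mouse, and for the mixed pool became 0.094 points at 1000 CPM. Spleen survival at 0.01 to 0.1% ranged from -0.24 to 0.022 points and spleen composition from -0.011 to 0.013 without 1 mouse. Without the libraries that stand apart, composition turned to -0.00091 in marrow and 0.0191 in spleen.

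The count of clones called lower by limma in marrow (1) was 2 with a pseudocount of 100 CPM and with linked barcodes summed, 2 with tissues averaged (51624 and 138752, not 205681), 8 with CPM as deposited, and 0 with a minimum of 1000 CPM, no minimum, no trend, centring, either edgeR scaling, or without the libraries that stand apart. Leaving out 1 mouse gave 0 to 4, with 0 without mouse 5, 3 without mouse 20 and 4 without mouse 8. Centring gave 10 higher. In spleen (0) it was 3 with CPM as deposited, which does not remove the LSK reads, and 2 with tissues averaged. Clone 283858 in marrow turned to 1.60 log2 with centring, and 626161 in spleen to -0.67 log2 with CPM as deposited. Summing linked barcodes and leaving out the 4 libraries were chosen after seeing the data. No paired analysis was possible because the groups share no mouse number.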
